A study of Danio rerio with 12 samples.

Results

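The slow and cardiac myosin heavy chains were followed in extraocular muscle (EOM), which turns the eyeball, and in trunk muscle of adult zebrafish. Members were chosen by gene name: smyhc1, smyhc2, smyhc3, myh6, vmhc, myh7ba and myh7bb. Of these 7 names, 5 were found in the gene name table, and they covered 7 of the 32520 gene rows of the deposited tables. The rows were smyhc1 (ENSDARG00000099959), smyhc2 (ENSDARG00000103969), myh7ba (ENSDARG00000076075), myh7bb (ENSDARG00000035322) and 3 rows that all carry the symbol MYH6 in capitals or lower case. No row carried the symbol smyhc3 or vmhc.

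The fish were of the AB strain and 5 months old. Muscle came either from wild type (WT) fish or from desma-/-;desmb-/- double mutants, which carry mutations in both genes for desmin, the intermediate filament protein that ties the sarcomeres of a muscle fibre together. The wild type fish came from the line in which the double mutant had been made. There were 4 groups of 3 libraries each (WT EOM, mutant EOM, WT trunk and mutant trunk), 12 in all. Where the description of the series mentions a knock-down and more than 1 time point, the sample labels were followed, which name the double mutant and 1 age. They do not say whether fish were pooled or whether both muscles came from the same fish, so the p-values measure the spread between these libraries, which may be in part technical. The comparison of genotypes within each muscle addresses how EOM, which is spared in many muscular dystrophies, differs from trunk muscle in its response to loss of desmin.

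A sarcomeric myosin heavy chain is the motor protein of the thick filament, and the isoform a fibre makes largely sets how fast it shortens. Fast fibres make fast isoforms, while slow fibres and the heart use a related branch of the family. In zebrafish, smyhc1, smyhc2 and smyhc3 are neighbouring, very similar genes of slow fibres, with smyhc1 the one switched on first in the embryo. The gene myh6 encodes the atrial and vmhc the ventricular heavy chain of the zebrafish heart, and in mammals the alpha cardiac chain MYH6 is also found in some eye and jaw muscle fibres. The genes myh7ba and myh7bb are the copies of MYH7B, an old member of the slow branch that hosts the microRNA miR-499.

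The 3 MYH6 rows were kept apart. MYH6 (ENSDARG00000079564) follows map4l in the files and is followed by MIR208A and then by a row with the symbol MYH7. In the RefSeq annotation of another assembly, GRCz12tu, the gene next to map4l has the symbol myh7 and the synonyms vmhc and smyhc3. The row myh6 (ENSDARG00000090637) lies between pak6b and SLC25A29, where that annotation also has myh6. MYH6 (ENSDARG00000114031) comes directly after smyhc1 and smyhc2, where that annotation lists smyhc3. These are neighbours only, and each row is called here by its own symbol and identifier. The smyhc copies are similar enough that reads can be lost to multimapping (8.276 to 12.51% of reads per library) or counted for the wrong copy, so single copies are uncertain. The sum of smyhc1 and smyhc2 is given as well, which is less exposed to reads counted for the wrong copy. It does not recover reads lost to multimapping, and it leaves out MYH6 (ENSDARG00000114031).

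Sequencing depth was 64544544 to 91115096 reads per library, counted on the strand of a gene. Levels are given as CPM (counts divided by the scaled library total and set to a common total) after scaling by trimmed mean of M-values (TMM) over the 12 libraries, and are compared between libraries and not between genes, since no transcript lengths were used. The mutated genes were checked first. Both desmin rows carry the symbol DES, and DES (ENSDARG00000058656) stood at 1336, 748.1 and 509.2 CPM in WT EOM and at 26.24, 23.8 and 18.22 in mutant EOM. The same row stood at 644.4, 575.2 and 518.7 CPM in WT trunk and at 62.7, 36.75 and 36.73 in mutant trunk, so every mutant library was below every wild type library. DES (ENSDARG00000005221) had 0 to 12 reads in any library and checks nothing. Hox genes of the trunk summed to at most 0.265 CPM in EOM and to 67.34 to 112.6 CPM in trunk, and a list of EOM markers summed to 153.5 to 310.3 CPM in EOM and to 15.22 to 65.76 CPM in trunk. Photoreceptor genes summed to 22.69 to 76.27 CPM in EOM and to at most 1.048 CPM in trunk. Leukocyte genes summed to 338.3 to 459.7 CPM in WT EOM and 443.6 to 1410 in mutant EOM, which overlapped, and to 142.8 to 165.7 CPM in WT trunk and 289 to 370 in mutant trunk, which did not. Their part in the genotype differences was not tested. Mutant EOM 2 and mutant trunk 2 had the fewest genes detected, 19431 and 19402, against 21556 to 24467 in the other 10 libraries. In bulk muscle, fewer cells of a type and less RNA per cell cannot be told apart.

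The levels of slow and cardiac heavy chain transcripts differed between trunk and EOM. By CPM in the wild type, smyhc1, smyhc2 and MYH6 (ENSDARG00000114031) were higher in trunk, while MYH6 (ENSDARG00000079564) was 67.3-fold lower in trunk. Of the 8 fast heavy chain rows, 2 were higher and 6 lower in WT trunk, by the test given below. Their median log2 difference there was -2.23. In mutant trunk 2 were higher and 3 lower. The fast row myhc4 held 80.1 to 87.5% of sarcomeric heavy chain reads in WT trunk and 14.2 to 17% in WT EOM. The sum of the 8 fast rows was higher in trunk, at 59222 to 85381 CPM in WT trunk against 22971 to 24368 in WT EOM. A higher CPM in trunk is therefore not by itself a larger share of heavy chain reads. By CPM the direction held in the mutant for all 4 slow and cardiac rows named above, although smyhc1 did not pass the test there. Shares of heavy chain reads are taken over 16 sarcomeric heavy chain rows found by symbol, so a row without a symbol is not counted. As such a share, smyhc1 went the other way in the mutant. Its mean share was 0.305% in mutant EOM and 0.181% in mutant trunk, and the groups overlapped. Every test below is edgeR's quasi-likelihood test with Benjamini-Hochberg adjustment over all genes tested, at an adjusted p of 0.05.

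The smyhc2 transcript, from a slow-fibre gene, stood at 274.9, 173.9 and 232.5 CPM in WT EOM and at 1725, 2560 and 3074 CPM in WT trunk. Mutant EOM had 164.8, 118.2 and 169 CPM and mutant trunk 1571, 3039 and 2676 CPM. Every trunk library was above every EOM library. The trunk minus EOM difference was 3.45 on the log2 scale (SE 0.39, adjusted p = 0.000238, n = 3 per group, edgeR) in the wild type, an 11-fold difference. It was 4.12 (SE 0.62, adjusted p = 0.000461, edgeR) in the mutant.

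The first slow gene of the embryo, smyhc1, stood at 131.1, 67.71 and 127.5 CPM in WT EOM and at 53.34, 30.86 and 69.83 CPM in mutant EOM. WT trunk had 444.3, 596.2 and 458.9 CPM and mutant trunk 114.2, 90.82 and 226.6 CPM. The wild type trunk libraries were therefore the highest of the 4 groups, with no overlap with any other. Wild type trunk exceeded wild type EOM in smyhc1 by a log2 difference of 2.22 (SE 0.33, adjusted p = 0.00122, edgeR). In the mutant the difference was 1.56 (SE 0.50, adjusted p = 0.083, edgeR), with no overlap between the tissues. It passed the test in 5 of the 14 alternatives tried, with adjusted p between 0.0208 and 0.532 over all of them. For the sum of smyhc1 and smyhc2, trunk exceeded EOM by a log2 difference of 3.16 (SE 0.39, adjusted p = 0.000406, edgeR) in the wild type and by 3.78 (SE 0.62, adjusted p = 0.000897, edgeR) in the mutant.

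MYH6 (ENSDARG00000079564) had the opposite pattern. It stood at 420.8, 351.6 and 433.3 CPM in WT EOM and at 312.9, 85.48 and 404.6 CPM in mutant EOM. WT trunk held 5.863, 6.591 and 5.248 CPM, from 456 to 487 reads, and mutant trunk held 6.634, 8.813 and 9.121 CPM. Mutant EOM 2, the lowest EOM library, was still far above every trunk library. Trunk was lower than EOM by a log2 difference of -6.07 (SE 0.30, adjusted p = 4.20e-06, edgeR) in the wild type and of -4.92 (SE 0.63, adjusted p = 0.000101, edgeR) in the mutant. The row that follows it in the files with the symbol MYH7 (in mammals the beta cardiac and slow chain) also fell in trunk, by a log2 difference of -3.98 (SE 0.42, adjusted p = 0.000153, edgeR) in the wild type, at 4.395 to 6.424 CPM in WT EOM and 0.1639 to 0.5278 CPM in WT trunk. MIR208A, the row between them, had 0 to 2 reads in any library.

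Heart muscle markers were examined beside this row, since its symbol is that of a heart gene. MYL7, the light chain of the zebrafish heart, had 0 reads in all 12 libraries. The natriuretic peptide gene nppb and the heart transcription factors TBX5 and TBX20 had at most 1 read in any library, and nppa had at most 8. Other heart rows were detected: gata4 had up to 55 reads and was at 0 in no library, NKX2-5 had up to 40 reads and HAND2 up to 21. TNNT2 (ENSDARG00000100694) reached 1225 reads in an EOM library and 786 in a trunk library, at most 14.7 CPM. The 15 heart rows summed to 47.8 to 60.26 CPM in WT EOM, 14.69 to 38.98 in mutant EOM, 5.51 to 6.631 in WT trunk and 6.256 to 14.99 in mutant trunk. TNNT2 (ENSDARG00000020610), a troponin T that is on both the heart and the slow thin filament lists, reached 53.4 CPM in EOM and had at most 10 reads in any trunk library. It averaged 46.46 CPM in WT EOM and 21.97 in mutant EOM, so most of the EOM sum of the heart rows was this row.

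MYH6 (ENSDARG00000114031), the row next to smyhc2, followed the smyhc genes in direction. Its values were 99.97, 58.26 and 67.86 CPM in WT EOM, 56.69, 41.33 and 60.42 in mutant EOM, 138.2, 179.1 and 223.3 in WT trunk and 214.2, 469 and 265 in mutant trunk. Trunk and EOM did not overlap in CPM in either genotype. As a share of the reads of the 7 rows this row was not higher in WT trunk, at 5.07 to 5.67% against 5.6 to 9.07% in WT EOM. In the mutant its share was 7.8 to 12.8% in trunk and 5.16 to 12% in EOM, which overlapped. Trunk exceeded EOM by a log2 difference of 1.28 in the wild type (SE 0.30, adjusted p = 0.0114, edgeR) and by 2.70 in the mutant (SE 0.53, adjusted p = 0.00382, edgeR). The call in the wild type was lost without WT EOM 2 (adjusted p = 0.0592, edgeR). The call in the mutant was lost without mutant EOM 1 (0.0608) or mutant EOM 2 (0.0598) and with library totals as the scaling (0.0814), all adjusted p from edgeR.

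**Figure D1:**
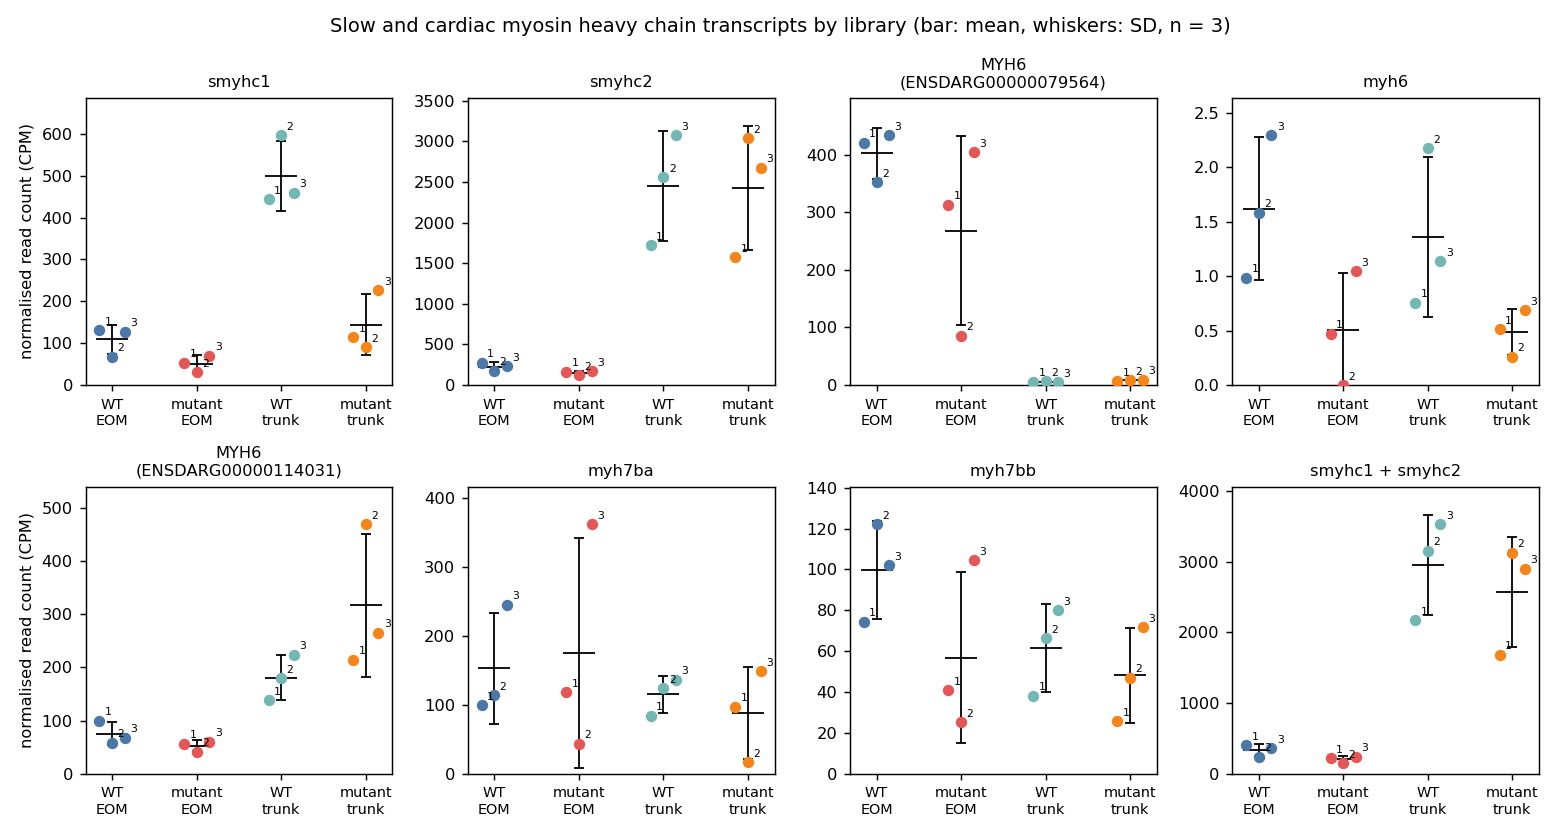
TMM-scaled read counts in CPM (linear axes from 0) for each row and for the sum of smyhc1 and smyhc2 in the 12 libraries; points are libraries numbered by replicate, the bar is the mean and the whiskers the SD of 3 libraries. The smyhc2 libraries of trunk sit at 1571 to 3074 CPM, above the EOM libraries at 118.2 to 274.9, while MYH6 (ENSDARG00000079564) is high in EOM and at 5.248 to 9.121 CPM in trunk.

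The remaining 3 rows did not pass the tissue test in either genotype. The MYH7B copy myh7ba stood at 99.72, 113.9 and 245.3 CPM in WT EOM, 118.1, 43.27 and 362.3 in mutant EOM, 84.42, 124.5 and 136.3 in WT trunk and 97.48, 16.87 and 148.9 in mutant trunk. Its groups overlapped throughout, and the trunk minus EOM difference in the wild type was -0.39 on the log2 scale (SE 0.36, adjusted p = 0.468, edgeR). Its sister copy myh7bb stood at 74.45, 122.2 and 102.1 CPM in WT EOM, 40.81, 25.21 and 104.5 in mutant EOM, 38.17, 66.26 and 80.14 in WT trunk and 25.57, 47.08 and 71.81 in mutant trunk. Its groups overlapped as well, with a wild type tissue difference of -0.68 (SE 0.32, adjusted p = 0.142, edgeR). As shares of the reads of the 16 sarcomeric heavy chain rows, both copies were lower in trunk than in EOM, with no overlap in either genotype. The ratio of the mean shares, trunk to EOM, was 0.247 for myh7ba and 0.204 for myh7bb in the wild type. In the mutant it was 0.13 and 0.181 (exact permutation p = 0.1 for each, the smallest possible). The miR-499 row mir499a, which follows myh7ba in the files, had 0 to 3 reads, in libraries made from poly-A RNA.

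The row myh6 (ENSDARG00000090637), whose symbol is that of the atrial chain, was barely detected. It had 78, 182 and 254 reads in WT EOM, 32, 0 and 145 in mutant EOM, 60, 161 and 99 in WT trunk and 30, 11 and 53 in mutant trunk, which is at most 2.295 CPM. The tissues overlapped in both genotypes. The wild type tissue difference was -0.24 on the log2 scale (SE 0.43, adjusted p = 0.725, edgeR).

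In all, 3 of the 7 rows were higher in WT trunk and 1 was lower, against a background of 13.8% of 18981 genes higher and 13.1% lower (27% in either direction). In the mutant 2 were higher and 1 was lower, against 3.2% of 18049 genes higher and 3.37% lower (6.57% in either direction). The tissues did not overlap for 4 of the 7 rows in the wild type, against 44.9% of all genes, and for the same 4 rows in the mutant, against 23.3%. The median log2 difference of the 7 rows was -0.24 in the wild type, beside -0.01 over all genes tested, and 0.01 in the mutant, beside 0.02 over all genes. Scaling by library totals alone, in place of TMM, moved the median of all genes to -0.43 in the wild type and -0.86 in the mutant tissue comparison, and to -0.50 in the trunk genotype comparison and -0.42 in the interaction.

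The make-up of the slow and cardiac heavy chain reads differed between the tissues, while their total share of heavy chain reads overlapped. Counted as reads and not scaled by length, smyhc2 made up 19.2 to 24.9% of the reads of the 7 rows in WT EOM and 70.8 to 77.3% in WT trunk. MYH6 (ENSDARG00000079564) made up 35.8 to 39.5% in WT EOM and 0.132 to 0.241% in WT trunk. The myh7ba row held 9.05 to 20.3% in WT EOM and 3.43 to 3.52% in WT trunk. The mutant groups had the same order of tissues, with smyhc2 at 14.4 to 34.3% in EOM and 77.4 to 82.8% in trunk.

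**Figure D2:**
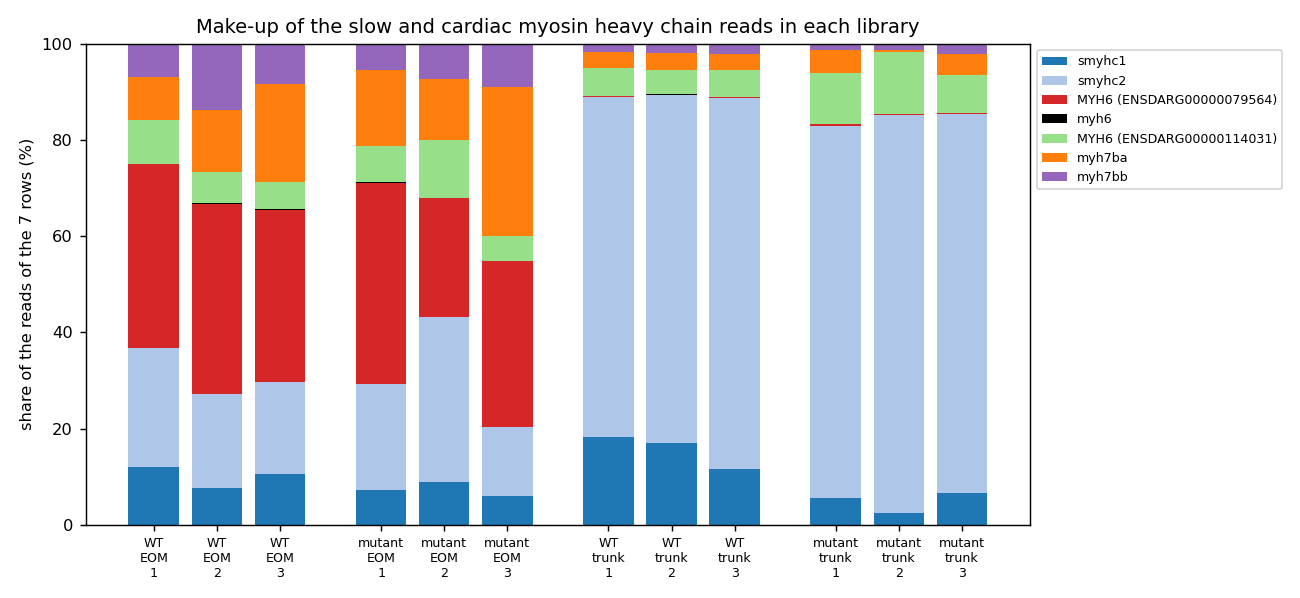
Share of the reads of the 7 slow and cardiac heavy chain rows (percent, stacked to 100) taken by each row in each of the 12 libraries, grouped by tissue and genotype. The smyhc2 share is 14.4 to 34.3% in the EOM libraries and 70.8 to 82.8% in the trunk libraries, and the MYH6 (ENSDARG00000079564) share is 24.8 to 41.9% in EOM and at most 0.327% in trunk.

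Set against 16 sarcomeric heavy chain rows (these 7, the MYH7 row and 8 fast rows), the 7 rows together made up 4.33, 3.73 and 4.79% of reads in WT EOM and 4.48, 3.15 and 5.26% in mutant EOM. WT trunk had 2.87, 3.98 and 6.3% and mutant trunk 3.22, 3.18 and 4.25%. The groups overlapped in every comparison, with exact two-sided permutation p of 0.9 between the wild type tissues and of 1 and 0.7 between genotypes in EOM and trunk, where 3 against 3 libraries cannot go below 0.1. The 95% Wilson intervals of these single-library shares were at most 0.082 percentage points wide and cover counting error only. Within this total, smyhc1 and smyhc2 together took 1.01 to 1.59% in WT EOM and 2.56 to 5.59% in WT trunk, with no overlap (exact permutation p = 0.1, the smallest possible). MYH6 (ENSDARG00000079564) took 1.47 to 1.71% in WT EOM and 0.00691 to 0.0083% in WT trunk.

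The question of the study was the effect of desmin loss within a muscle, and there no row passed the test. In trunk, smyhc1 had the lowest p of the 7, with mutant libraries at 90.82 to 226.6 CPM and wild type libraries at 444.3 to 596.2 CPM and no overlap. Mutant minus wild type was -1.80 on the log2 scale (SE 0.38, unadjusted p = 0.00192, adjusted p = 0.181, edgeR, n = 3 per group). DESeq2, on the same counts, gave -1.81 with an adjusted p of 0.000621, past the threshold, in a comparison where it passed 614 genes and edgeR 6. Over the 14 alternatives the log2 difference ran from -2.30 to -1.56 and the adjusted p from 0.000621 to 0.762. Without mutant trunk 2, the library with the fewest genes detected, it was -1.56 (adjusted p = 0.0663, edgeR).

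The other trunk rows were further from the threshold. The smyhc2 row had a mutant minus wild type log2 difference of -0.01 (SE 0.36, adjusted p = 0.99, edgeR), and the sum of smyhc1 and smyhc2 one of -0.19 (SE 0.34, adjusted p = 0.782, edgeR). MYH6 (ENSDARG00000114031) differed by 0.82 (SE 0.36, adjusted p = 0.393, edgeR) and MYH6 (ENSDARG00000079564) by 0.47 (SE 0.23, adjusted p = 0.429, edgeR). The row myh6 differed by -1.46 (SE 0.55, adjusted p = 0.346, edgeR), from 11 to 161 reads a library. The groups did not overlap in CPM for 3 of the 7 rows (smyhc1 and myh6 lower, MYH6 (ENSDARG00000079564) higher), against 26.8% of all genes. For MYH6 (ENSDARG00000079564) the gap was narrow, 6.591 CPM in WT trunk 2 against 6.634 in mutant trunk 1, and depended on the TMM scaling. Mutant trunk 1 had 386 of its reads among 91115096, and WT trunk 1 had 465 among 79369113. Over the alternatives its log2 difference ran from 0.01 to 0.62. None of the 7 rows passed the threshold, which 0.0333% of 18041 genes did, and 2 of the 7 had an unadjusted p under 0.05, against 13.1% of genes. With limma-voom none passed.

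For myh7ba and myh7bb in trunk the log2 differences were -0.40 (SE 0.66) and -0.35 (SE 0.42), with adjusted p of 0.766 and 0.69 (edgeR). The myh7ba value rested on mutant trunk 2, at 16.87 CPM against 97.48 and 148.9 in the other mutant trunk libraries, and without that library it was 0.09. A list of 10 genes for very large proteins, added after values were seen, summed to 95.69 CPM in mutant trunk 2 and to 253.1 to 398.8 CPM in the other 5 trunk libraries. Its part in the myh7ba value was not tested.

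In EOM, 6 of the 7 rows were lower in the mutant by their fitted log2 difference, with a median of -0.59 beside 0.03 over all genes, and none passed the threshold, which 0.303% of 18804 genes did. Fast heavy chains leaned the same way, with 6 of 8 lower and a median of -0.13. So did slow and cardiac thin filament rows, with 10 of 15 lower and a median of -0.33. Of 5 slow and cardiac light chain rows, 2 were lower and 3 higher. The smyhc1 difference was -1.08 (SE 0.47, unadjusted p = 0.0311, adjusted p = 0.807, edgeR), the sole unadjusted p under 0.05 among the 7, against 5.37% of genes. The smyhc2 libraries did not overlap in CPM, at 118.2 to 169 in the mutant and 173.9 to 274.9 in the wild type, and their difference was -0.59 (SE 0.49, adjusted p = 0.999, edgeR). This was 1 of 7 rows, against 6.93% of all genes lower without overlap. The gap depended on the TMM scaling. Mutant EOM 3 had 23480 smyhc2 reads of 77035539 in all, and WT EOM 2 had 19993 of 90771297. By library totals alone the groups therefore overlapped. The sum of smyhc1 and smyhc2 differed by -0.73 (adjusted p = 0.999, edgeR), at 149 to 238.9 CPM in mutant EOM and 241.6 to 406.1 in WT EOM. The sum also overlapped by library totals, with 33180 reads in mutant EOM 3 and 27778 in WT EOM 2. DESeq2 and limma-voom passed none of the 7 rows either.

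Libraries of the same replicate number deviated together in EOM, though no label pairs wild type with mutant libraries beyond that number. With the replicate number as a block, 2 rows passed. The smyhc1 difference was then -1.10 (SE 0.33, adjusted p = 0.0307, edgeR) and that of myh6 -2.17 (SE 0.53, adjusted p = 0.0049, edgeR), where 3.1% of genes passed and 2.02% did so as lower. A block in a fit of 6 libraries leaves little to estimate the spread of a single row. The SEs were 0.32 to 0.34 for all rows but myh6, so these p-values lean on a spread shared across genes. Markers of other cell types passed in the same fit: the leukocyte genes cd74a at 1.19 (adjusted p = 0.0253, edgeR) and IRF8 at 1.32 (adjusted p = 0.00621, edgeR), the globin hbaa2 at -1.82 (adjusted p = 1.84e-05, edgeR) and the keratin krt5 at -1.26 (adjusted p = 0.0205, edgeR). These were 2 of 9 leukocyte, 1 of 4 red blood cell and 1 of 7 skin and cornea rows tested. By the unblocked fitted values, 2 of the 9 leukocyte rows were lower and 2 of the 7 skin rows higher. The skin rows summed to 284.6 to 1066 CPM in WT EOM and 290.8 to 964.2 in mutant EOM, which overlapped. The part of these markers in the blocked member values was not tested. The myh6 value came from at most 254 reads a library and from 0 reads in mutant EOM 2. In the same fit myh7bb stood at -1.03 (SE 0.34, adjusted p = 0.0687, edgeR) and MYH6 (ENSDARG00000079564) at -0.84 (SE 0.34, adjusted p = 0.187, edgeR).

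Mutant EOM 2 was the lowest of the 3 mutant EOM libraries for all 7 rows. Without it the unblocked log2 differences were -0.81 for smyhc1, -0.44 for smyhc2, -0.16 for MYH6 (ENSDARG00000079564), -1.07 for myh6, -0.36 for MYH6 (ENSDARG00000114031), 0.67 for myh7ba and -0.45 for myh7bb. The sum of the fast heavy chains was also lowest there, at 10596 CPM against 15928 and 21089 in the other mutant EOM libraries and 22971 to 24368 in WT EOM. What the low level of all heavy chains in that library contributes to these differences was not tested. As shares of heavy chain reads, which do not depend on that level, smyhc1 stood at 0.284 to 0.515% in WT EOM and 0.282 to 0.32% in mutant EOM, and the groups overlapped.

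**Figure D3:**
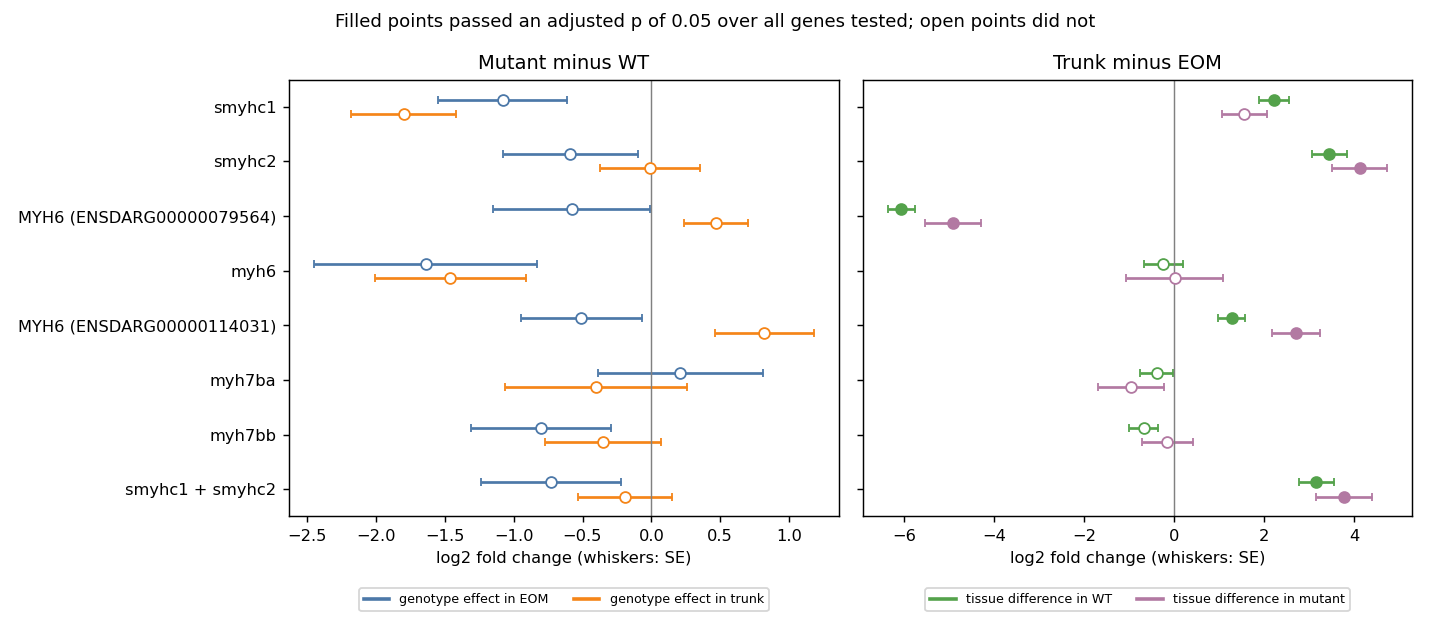
Log2 differences from edgeR for the 7 rows and the sum of smyhc1 and smyhc2, with SE (whiskers) derived from the F statistic of the test. The left panel plots mutant minus wild type in EOM and in trunk, the right panel trunk minus EOM in each genotype. Filled points passed an adjusted p of 0.05 over all genes; no point of the left panel is filled, and smyhc1 lies at -1.08 in EOM and -1.80 in trunk.

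The genotype effects of the 2 muscles were compared by the interaction term, the trunk effect minus the EOM effect. No row passed, with DESeq2 and limma-voom as with edgeR, and 0.00998% of 20041 genes did. An unadjusted p under 0.05 was reached by 1 of the 7 rows, against 4.43% of genes. The lowest p was that of MYH6 (ENSDARG00000114031), with 1.32 on the log2 scale (SE 0.52, unadjusted p = 0.023, adjusted p = 0.934, edgeR). For smyhc1 it was -0.71 (SE 0.60, adjusted p = 0.934, edgeR), so a different smyhc1 effect in the 2 muscles was not detectable here.

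Ratios within a library do not depend on scaling between libraries. Per 100 smyhc2 reads there were 47.7, 38.9 and 54.8 smyhc1 reads in WT EOM, 32.4, 26.1 and 41.3 in mutant EOM, 25.8, 23.3 and 14.9 in WT trunk and 7.27, 2.99 and 8.47 in mutant trunk. In trunk the mutant libraries all lay below the wild type libraries, with a ratio of the means of 0.293 (exact two-sided permutation p = 0.1, the smallest possible). In EOM the genotypes overlapped (ratio of the means 0.705, exact permutation p = 0.2). MYH6 (ENSDARG00000114031) reads numbered 29.2 to 36.4 per 100 smyhc2 reads in WT EOM, 34.4 to 35.7 in mutant EOM, 6.99 to 8.01 in WT trunk and 9.9 to 15.4 in mutant trunk. In trunk this ratio was higher in every mutant library (exact permutation p = 0.1), opposite in direction to that of smyhc1. Of 40 such tests over 10 ratios and shares, none can fall below 0.1, so none can pass after adjustment.

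**Figure D4:**
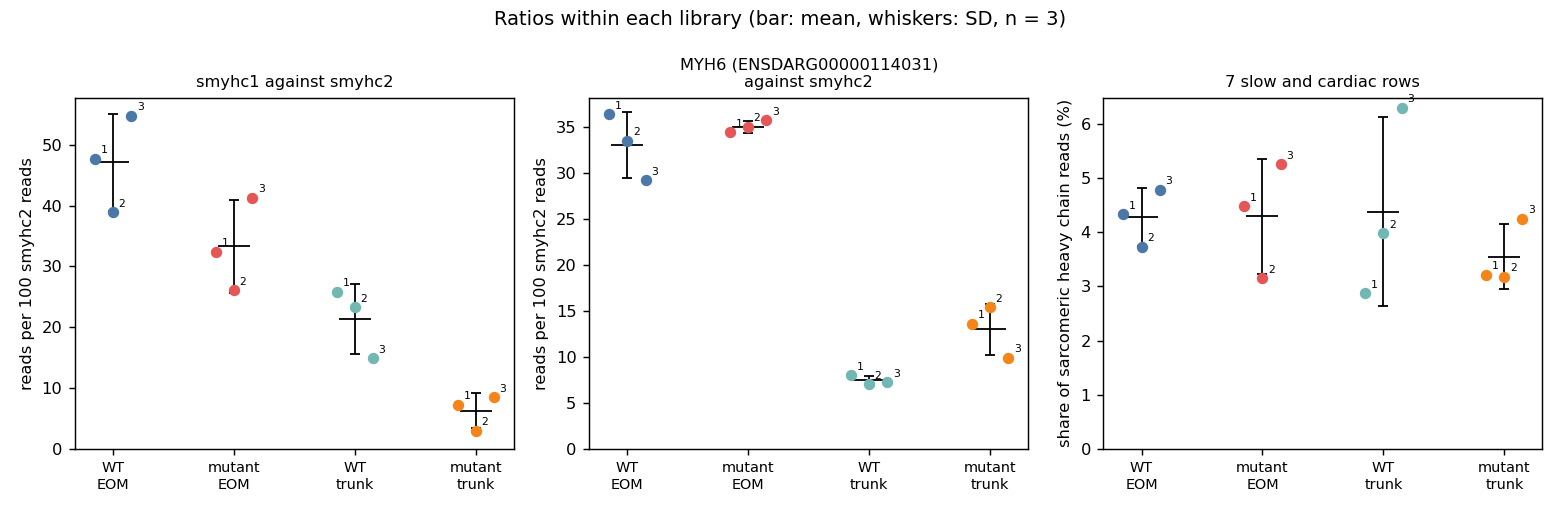
Ratios within each library: smyhc1 reads per 100 smyhc2 reads (left), MYH6 (ENSDARG00000114031) reads per 100 smyhc2 reads (middle) and the share of sarcomeric heavy chain reads held by the 7 rows in percent (right); points are libraries, the bar is the mean and the whiskers the SD of 3 libraries. Mutant trunk has 2.99 to 8.47 smyhc1 reads per 100 smyhc2 reads and WT trunk 14.9 to 25.8, while the share on the right overlaps in all groups.

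The partners of the slow and cardiac heavy chains also differed between the tissues. Their counts stand against 13.8% of all genes higher and 13.1% lower in WT trunk, and 3.2% higher and 3.37% lower in mutant trunk. Of 5 slow and cardiac light chain rows tested, 2 were higher and 3 lower in WT trunk. The light chain rows lower in trunk were MYL2 (ENSDARG00000053424), the regulatory light chain of slow and ventricular muscle in mammals, by -4.70 (SE 0.35, adjusted p = 2.10e-05, edgeR), MYL2 (ENSDARG00000104722), by -3.13, and myl4, the atrial essential light chain in mammals, by -4.25. The row myl10 was higher by 2.58 (SE 0.51, adjusted p = 0.00512, edgeR). In the mutant 1 was higher and the same number, 3, lower. The thin filament list, with 14 rows tested, had 3 higher and 7 lower in WT trunk, and with 15 tested 3 higher and 4 lower in mutant trunk.

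Wide tissue differences were found among the troponins. TNNI1 (ENSDARG00000000474), a slow troponin I (the inhibitory subunit), stood at 106.5 to 224 CPM in WT EOM and had 2 to 6 reads in WT trunk. TNNT2 (ENSDARG00000020610), a troponin T that anchors the complex to tropomyosin, was lower in WT trunk by a log2 difference of -9.02 (SE 0.41, adjusted p = 2.69e-06, edgeR). In the opposite direction tnnt2d was higher in WT trunk by 9.29 (SE 0.47, adjusted p = 4.32e-06, edgeR), at 268.7 CPM against 0.4416 in EOM.

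Among 14 thick filament and calcium partners of slow fibres, 7 were higher and 2 lower in WT trunk, and 6 were higher and 0 lower in mutant trunk. MYOM2, which cross-links thick filaments at the M-band, was higher in WT trunk by 2.62 (SE 0.33, adjusted p = 0.000459, edgeR) and MYOM1 (ENSDARG00000104836) by 2.25. Myoglobin, mb, the oxygen store of slow fibres, was higher in mutant trunk than in mutant EOM by 3.24 (SE 0.55, adjusted p = 0.00115, edgeR). Of 25 regulator rows, 13 were higher and 1 lower in WT trunk, among them SOX6, a repressor of slow genes, by 1.90 (SE 0.27, adjusted p = 0.000945, edgeR), and MEF2C (ENSDARG00000009418) by 1.58. The regulators had a median of 0.98 in the wild type, and the very large protein list was alike, with 6 of 10 higher and a median of 0.93. In the mutant 2 of the 25 regulators were higher. Of 10 rows for chaperones and turnover of myosin, 2 were higher and 1 lower in WT trunk, a share near the 27% of all genes. SMYD1 (ENSDARG00000009280), a methyltransferase needed for thick filament assembly in zebrafish, was higher by 2.23 (SE 0.45, adjusted p = 0.00602, edgeR), and UNC45B, a chaperone that folds the myosin head, by 1.19 (SE 0.30, adjusted p = 0.0154, edgeR). In the mutant 2 of the 10 were higher and 1 lower.

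Desmin loss changed none of these partner rows past the threshold in either muscle in the main edgeR fits. Of the alternatives, only the EOM fit with the replicate block was examined for partner rows. Among the heavy chains 1 row did pass in the main fits, the fast myhb in mutant trunk. It rose from 1.09 ± 0.0614 to 35.49 ± 14.6 CPM (SD, n = 3 each), a log2 difference of 5.03 (SE 0.40, adjusted p = 0.0316, edgeR). That call is lost in at least 5 of the 14 alternatives, since 0 genes passed in trunk with the replicate block and without WT trunk 1, WT trunk 2, WT trunk 3 or mutant trunk 3. All 12 thin filament rows tested in trunk were higher in the mutant by their fitted value, with a median of 0.54 beside -0.03 over all genes, and none passed. Skeletal myofibre markers went the same way, with 7 of 10 higher and a median of 0.43, and none passed. They summed to 61370 to 86552 CPM in WT trunk and to 93975 to 182632 in mutant trunk. Of the fast heavy chains 6 of 8 were higher, with a median of 0.40. The part of these lists in the thin filament values was not tested. Of the regulators, 17 of 25 were lower in mutant trunk, with a median of -0.53, and none passed. The 10 very large protein genes were all lower there, with a median of -0.81, as were 5 of 7 nerve and glia rows, with a list median of -1.02, and none of these passed. Their part in the regulator values was not tested. In EOM with the block, TNNT2 (ENSDARG00000020610) fell by a log2 difference of -1.24 (SE 0.33, adjusted p = 0.0136, edgeR), tnnt2e by -1.26 (SE 0.35, adjusted p = 0.0208, edgeR) and the fast heavy chain myha by -1.16 (SE 0.35, adjusted p = 0.0362, edgeR), 2 of 15 thin filament rows and 1 of 8 fast rows, beside the leukocyte, globin and keratin rows that passed in that fit.

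The genes nearest in pattern were found by the root mean square difference of log2(CPM + 0.5) values, each centred on its mean, over the 12 libraries, among 12808 genes with a symbol. For smyhc1 these were metap2a and BCL6, both at 0.43, where smyhc1 itself varied by 1.28 about its mean. For smyhc2 they were alpk3b at 0.29 and HOXA3 at 0.31, where smyhc2 varied by 1.89. MYH6 (ENSDARG00000079564), which varied by 2.73, lay nearest to TNNT2 (ENSDARG00000020610) at 0.33 and ALX4 (ENSDARG00000088332) at 0.40. For MYH6 (ENSDARG00000114031) the nearest were trpm1b at 0.25 and TRIB3 at 0.26, where it varied by 1.05. For myh7ba they were zbtb4 at 0.33 and TACC1 at 0.37, and for myh7bb mideasa at 0.36 and iqce at 0.39. The myh6 row was under the minimum mean of 1 CPM and was not compared. Several of these nearest genes were close to the floor in a tissue, where the added 0.5 flattens differences. In WT and mutant EOM, HOXA3 averaged 0.0398 and 0.01691 CPM, alpk3b 0.735 and 0.3301, and trpm1b 0.461 and 0.2799. In WT and mutant trunk, TNNT2 (ENSDARG00000020610) averaged 0.08521 and 0.09347 CPM. For such genes a small distance does not mean a tissue difference of like size.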

How the data were processed

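Raw gene-level read counts were deposited by the authors, 1 table for each library, in the layout that STAR writes, per the file headers; the submitters' processing notes name STAR, DESeq2 and GRCz11. Reads with several mapping positions are a summary line there and belong to no gene. The counts on the strand of the gene (96.43 to 97.26% of stranded reads) were used, and summary lines stayed out of library sizes. Muscle was dissected, and poly-A selected, stranded libraries were made from its RNA, per the labels' protocols. Genes were tested with edgeR 4.0.16 in R 4.3.3 (TMM, filterByExpr with a minimum count of 10 and total of 15, quasi-likelihood test, robust, adjusted over all genes), on the 6 libraries of the groups compared or, for the interaction, on all 12. This test gives no SE, so each SE printed with edgeR is the log2 difference divided by the square root of the test's F statistic. The procedure was also run on simulated counts with independent libraries and the same spread for every gene, which does not show its error rate in these data. DESeq2 1.42.0 and limma 3.58.1 were alternatives, with other scalings, no filter, unstranded counts, 1 fit of all groups, the replicate block and each library left out. Same-numbered libraries deviated together in EOM (Pearson r of 0.46, 0.45 and 0.72 across 13199 genes) and not in trunk (0.03 to 0.04), a pairing taken from the numbers in the sample titles. Between the tissues r was 0.09, -0.23 and -0.15 in the wild type and -0.17, 0.15 and 0.59 in the mutant. The members, the lists and the tests were chosen with earlier results of these data known, and the lists were trimmed to names found in the tables. Named genes are the members, both desmin rows and, from each list and comparison, up to 3 with the smallest adjusted p past the threshold, and otherwise the most abundant one. Other rows are named where a count or a neighbour required it, after their values were seen.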

Additional observations from a re-analysis of the deposited data

Results flagged for a closer look

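The share of sarcomeric heavy chain reads held by myhz1.1, a fast heavy chain, moved in opposite directions with genotype in the 2 muscles. It was 53.8 to 60.7% in WT EOM and 46.2 to 48.4% in mutant EOM, lower in every mutant library, and 0.129 to 0.203% in WT trunk and 0.249 to 0.869% in mutant trunk, higher in every mutant library. The difference of the means was -10.3 percentage points in EOM and 0.31 in trunk, where mutant trunk 2 stood at 0.869% and the other mutant libraries at 0.249 and 0.299%. The trunk effect minus the EOM effect was 10.6 percentage points, nearly all of it from EOM, and was not tested. The share of myhc4, another fast heavy chain, was higher in mutant EOM, at a mean of 20.3% against 15.2%, with no overlap. Shares of 1 total are not independent of each other.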

How the results depend on the processing

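The wild type tissue calls for smyhc1, smyhc2, MYH6 (ENSDARG00000079564) and the sum of smyhc1 and smyhc2, and the mutant calls for smyhc2, MYH6 (ENSDARG00000079564) and the sum, held in every alternative tried, including a sum with MYH6 (ENSDARG00000114031), added after the data were seen. With the replicate block, 2 of the 7 rows passed between genotypes in EOM. The block also passed smyhc1 between mutant tissues (adjusted p = 0.0208, edgeR), where the replicate numbers paired unevenly (Pearson r of -0.17, 0.15 and 0.59). It changed no other call of the 7 rows. With DESeq2, 1 row passed between genotypes in trunk. Counts of all genes past the threshold moved more: 57 in EOM (0 to 582 over the alternatives), 6 in trunk (0 to 614, and 251 without mutant trunk 2), 2 for the interaction (0 to 13), 5116 between wild type tissues (1968 to 7732) and 1186 between mutant tissues (515 to 2313). For rows not past the threshold the sign turned as follows. The EOM genotype difference of myh7ba was -0.27 with limma-voom and -0.18 with the block. The interaction was -0.30 (library totals) and -0.61 (unstranded counts) for myh6, and -0.07 (library totals) for myh7bb. The mutant tissue difference of myh6 was -0.02 with DESeq2 size factors and with DESeq2, -1.05 with library totals, -0.01 with no filter, -0.90 with unstranded counts and -0.06 in 1 fit of all libraries, and that of myh7bb was 0.0023 with limma-voom. The cause was not tested. Leaving out each library in turn also turned signs, with these ranges: in EOM between genotypes, myh7ba -0.94 to 0.71; in trunk between genotypes, smyhc2 -0.22 to 0.23, myh7ba -1.03 to 0.09 and the smyhc sum -0.38 to 0.04; for the interaction, myh6 -0.37 to 1.28 and myh7ba -1.20 to 0.51. Between wild type tissues the ranges were -0.76 to 0.07 for myh6 and -0.62 to 0.10 for myh7ba, and between mutant tissues -0.63 to 1.06 for myh6, -1.59 to 0.07 for myh7ba and -0.59 to 0.53 for myh7bb. The difference in the slow and cardiac share of heavy chain reads, in percentage points, ran from -0.467 to 0.591 (EOM genotypes), -1.59 to 0.124 (trunk genotypes) and -0.857 to 0.855 (wild type tissues). With 3 libraries a group, and at most 254 reads of myh6 in any library, small differences were not detectable.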
